A study of Arabidopsis thaliana with 4 samples.

Results

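The beta-tubulin family of *Arabidopsis* comprises the genes TUB1 to TUB9, and its members were chosen by locus: TUB1 (AT1G75780), TUB2 (AT5G62690), TUB3 (AT5G62700), TUB4 (AT5G44340), TUB5 (AT1G20010), TUB6 (AT5G12250), TUB7 (AT2G29550), TUB8 (AT5G23860) and TUB9 (AT4G20890). All 9 members were found among the 33476 annotations of the expression table, and all 9 passed the filter on low values. Beta-tubulin pairs with alpha-tubulin to form the heterodimer from which microtubules are built. In dividing plant cells microtubules form the preprophase band, the spindle and the phragmoplast, which guides the new cell plate. In cells that expand or have stopped dividing, arrays beneath the plasma membrane guide cellulose synthesis.

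The mRNA-Seq experiment held 4 libraries of poly-A RNA from *Arabidopsis thaliana* in the Columbia background, 2 of dividing tissue and 2 of non-dividing tissue. Dividing tissue was the shoot meristem with the younger leaves, and non-dividing tissue the oldest 4 to 6 leaves, both dissected from plants kept for 5 days at 4 °C as seeds and then grown for 4 weeks at 20 to 22 °C in short days of 8 h light. One library of each tissue came from the HTR5-GFP line (replicate 1) and the other from the HTR13-GFP line (replicate 2), so that every plant carried a GFP-tagged histone H3 gene under its own promoter (HTR5 encodes H3.3, HTR13 encodes H3.1) and no untagged plants were compared. How many plants went into a library is not given in the sources used here. Replicate and line therefore coincide, and p-values measure the spread between libraries of different lines. Transcript levels are given as FPKM, fragments scaled to the length of the annotation and to the mapped reads of the library, so that levels can be compared between genes.

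The tissue labels were checked against marker genes. Of 5 genes of dividing tissue, 4 were higher in dividing tissue and WUS was listed at 0 in all 4 libraries; their summed FPKM was 82.3 and 81.4 in dividing tissue, against 2.85 and 3.87 in non-dividing tissue. Mature leaf markers did not separate the tissues as clearly: their summed FPKM was 14774 and 14363 in dividing tissue, against 16179 and 17675 in non-dividing tissue, LHCB2.1 alone was called lower in dividing tissue and SAG12 was listed at 0 throughout. The 3 root hair markers were listed at 0 in all libraries, and the 3 flower markers summed to at most 0.471 FPKM in any library. Markers of other leaf cell types, except MYB60 of guard cells, moved with tissue. The trichome regulator GL2 had 21.0 and 25.6 FPKM in dividing tissue, against 0.212 and 0.378 in non-dividing tissue, and 4 vascular markers summed to 63.4 and 54.8 FPKM in dividing tissue, against 151 and 149 in non-dividing tissue, with the phloem genes SUC2 and APL lower and the secondary wall genes CESA7 and CESA8 higher in dividing tissue. The 2 guard cell markers summed to 7.002 and 7.59 FPKM in dividing tissue, against 8.31 and 10.06 in non-dividing tissue. KAT1 was lower in dividing tissue, whereas MYB60 had 4.87 and 4.87 FPKM in dividing tissue, against 4.41 and 5.17 in non-dividing tissue. The part of these cell types in the tubulin values was not tested, and in whole tissue fewer cells of a type and less RNA per cell cannot be told apart.

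The 9 genes are alike in length and structure. In the RefSeq annotation of TAIR10.1 their coding sequences are 1335 to 1353 bases long, and 8 of them have 3 exons, whereas TUB6 has 4. TUB2 (25181415 to 25183729) and TUB3 (25184397 to 25186711) lie side by side on chromosome 5 in TAIR9, on the same strand, with 446 bases between their RefSeq transcripts, and chromosome 5 also carries TUB4, TUB6 and TUB8. No member overlaps another annotation of the table. Coding sequences of TUB2 and TUB3 were 97.6% identical, with 32 substitutions and no gap. The next most alike pairs were TUB4 and TUB9 (87.5%) and TUB1 and TUB5 (87.4%), and TUB7 was closest to TUB3 (84.7%).

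The end of the coding sequence encodes the acidic tail of beta-tubulin, the part in which isotypes differ most and which lies on the outside of the microtubule. The last 75 coding bases of each gene, stop codon included, show how far the copies differ in this part, not over the whole coding sequence. Capitals mark bases that differ from the aligned base of TUB2 or are inserted relative to it. The sequence is RefSeq of TAIR10.1, with TUB2 at chr5:25183427-25183501 on the plus strand.
TUB1: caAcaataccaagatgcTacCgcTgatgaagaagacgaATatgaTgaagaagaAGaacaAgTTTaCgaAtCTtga
TUB2: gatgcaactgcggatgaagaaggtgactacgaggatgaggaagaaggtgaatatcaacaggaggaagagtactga
TUB3: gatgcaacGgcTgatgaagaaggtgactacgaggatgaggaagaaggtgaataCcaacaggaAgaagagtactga
TUB4: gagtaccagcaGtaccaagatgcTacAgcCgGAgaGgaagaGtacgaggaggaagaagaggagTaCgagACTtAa
TUB5: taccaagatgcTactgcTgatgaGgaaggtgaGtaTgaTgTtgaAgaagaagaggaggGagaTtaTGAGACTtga
TUB6: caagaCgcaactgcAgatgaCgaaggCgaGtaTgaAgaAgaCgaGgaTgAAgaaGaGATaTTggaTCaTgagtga
TUB7: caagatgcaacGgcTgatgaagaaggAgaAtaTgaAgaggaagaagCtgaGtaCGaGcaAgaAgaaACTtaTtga
TUB8: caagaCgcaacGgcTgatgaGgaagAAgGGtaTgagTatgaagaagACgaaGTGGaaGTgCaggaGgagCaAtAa
TUB9: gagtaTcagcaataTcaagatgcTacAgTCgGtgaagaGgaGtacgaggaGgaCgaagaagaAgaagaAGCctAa
TUB3 had 4 capitals and the other members 14 to 23. Bases of TUB2 that a member lacks are not marked: in the alignments TUB3 lacked none over this stretch, TUB6, TUB7 and TUB8 lacked 3, TUB1 and TUB5 lacked 12, and TUB4 and TUB9 lacked 18.

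Similarity bears on the measurement, since reads that match both copies cannot be assigned to one of them. Of the 36-base stretches within exons (a length chosen here, since the read length is not given in the sources used here), 68.3% of those of TUB2 and 69.1% of those of TUB3 occurred at a single place in the genome, whereas for the other members this share was between 97.8 and 100%. For stretches of 75 bases the shares were 83.5 and 83.7% for TUB2 and TUB3 and 100% for the others. How the deposited FPKM divided shared reads between TUB2 and TUB3 is therefore uncertain, and both genes are also given as their sum.

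TUB2 and TUB3 had the highest FPKM of the family in dividing tissue. TUB2 had 335 and 376 FPKM in dividing tissue (HTR5-GFP and HTR13-GFP line), against 85.6 and 84.7 FPKM in non-dividing tissue. Both libraries of dividing tissue were far above both of non-dividing tissue, with a ratio of 3.92 between the HTR5-GFP libraries and of 4.44 between the HTR13-GFP libraries. On the scale of log2(FPKM + 1), the fold change of dividing relative to non-dividing tissue (log2FC) was 2.05 ± 0.10 (SE, limma adjusted p = 2.55e-04).

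TUB3 had 309 and 355 FPKM in dividing tissue, against 66.4 and 63.9 FPKM in non-dividing tissue. Its log2FC was the largest of the family at 2.33 ± 0.11 (SE, limma adjusted p = 2.32e-04). Summed as a single feature, TUB2 and TUB3 had 644 and 731 FPKM in dividing tissue, against 152 and 149 FPKM in non-dividing tissue, and the log2FC was 2.18 ± 0.11 (SE, limma adjusted p = 2.59e-04). The FPKM of TUB2 was 1.09 and 1.06 times that of TUB3 in dividing tissue, against 1.29 and 1.32 times in non-dividing tissue, without overlap between the tissues, although the smallest exact two-sided permutation p for 2 against 2 libraries is 0.33.

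TUB1 (chromosome 1, 28451141 to 28453640 in TAIR9) had the lowest FPKM of the family in every library. It had 9.39 and 10.97 FPKM in dividing tissue, against 1.25 and 1.97 FPKM in non-dividing tissue. The ratio of its tissue means was 6.32, the highest of the family, while its log2FC with 1 added to each FPKM was 2.11 ± 0.17 (SE, limma adjusted p = 6.17e-04), because the added 1 weighs more at low FPKM. The ratio was 7.49 between the HTR5-GFP libraries and 5.57 between the HTR13-GFP libraries, a difference that was not tested.

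TUB7 (chromosome 2, 12644047 to 12646037 in TAIR9), the closest relative of the TUB2 and TUB3 pair by coding sequence, was also several-fold higher in dividing tissue. It had 75.9 and 86.6 FPKM in dividing tissue, against 24.1 and 23.1 FPKM in non-dividing tissue, and its log2FC was 1.74 ± 0.10 (SE, limma adjusted p = 3.39e-04). TUB1, TUB2, TUB3 and TUB7 lay between percentiles 94.2 and 97.5 of the log2FC values of all tested annotations.

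TUB5, TUB6 and TUB8 were higher in dividing tissue by a smaller factor. TUB5 (chromosome 1, 6937795 to 6940582) had 150.3 and 147 FPKM in dividing tissue, against 71.8 and 84.5 FPKM in non-dividing tissue (log2FC 0.92 ± 0.11 SE, limma adjusted p = 0.00175). TUB6 (chromosome 5, 3961106 to 3963522) had 132 and 139.5 FPKM in dividing tissue, against 70.8 and 77.4 FPKM in non-dividing tissue (log2FC 0.87, limma adjusted p = 0.00130). TUB8 (chromosome 5, 8042876 to 8044819) had 39.3 and 44.4 FPKM in dividing tissue, against 22.5 and 24.98 FPKM in non-dividing tissue (log2FC 0.79, limma adjusted p = 0.00247). For each of these genes the libraries of the tissues did not overlap, and the ratio of tissue means was between 1.77 and 1.90. The 95% interval of the log2FC was 0.64 to 1.21 for TUB5 and 1.67 to 2.55 for TUB1, its closest relative, and the difference between these genes was not tested.

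TUB4 and TUB9, the most alike pair after TUB2 and TUB3, were the members that were not higher in dividing tissue. TUB4 (chromosome 5, 17859195 to 17861101) had 211 and 259.6 FPKM in dividing tissue, against 233 and 259 FPKM in non-dividing tissue, so that the libraries of the tissues overlapped. Its log2FC was -0.07 (95% interval -0.42 to 0.29, limma adjusted p = 0.679), an interval that leaves room for a change of either sign but lies below that of the 7 genes described above. TUB9 (chromosome 4, 11182092 to 11184072) had 42.9 and 43.3 FPKM in dividing tissue, against 57.3 and 49.8 FPKM in non-dividing tissue, without overlap. It was lower in dividing tissue with a log2FC of -0.30 ± 0.10 (SE, limma adjusted p = 0.0454), a small change just past the threshold of 0.05. The adjusted p was 0.180 without replicate 1 of dividing tissue, 0.171 without replicate 2 of dividing tissue and 0.117 without replicate 1 of non-dividing tissue, so that the call rests on having all of these libraries.

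**Figure D1:**
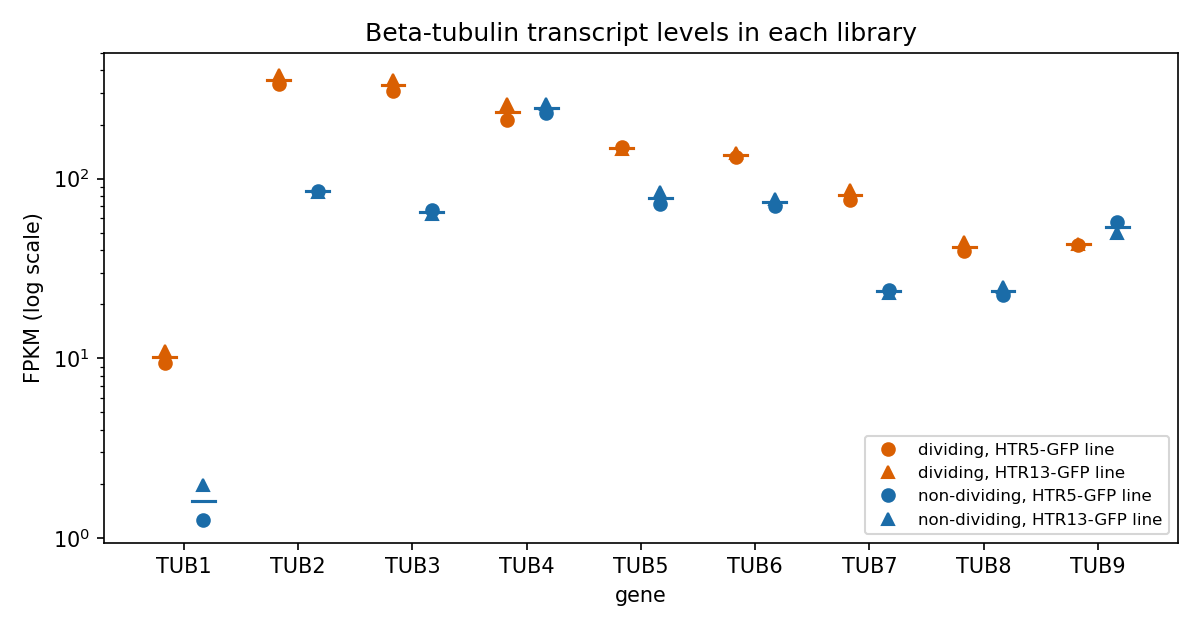
FPKM (log axis) of TUB1 to TUB9 in the libraries of dividing (orange) and non-dividing (blue) tissue, with circles for the HTR5-GFP line, triangles for the HTR13-GFP line and a bar at each mean of 2 libraries. The tissues are apart for every gene except TUB4, with 211 and 259.6 FPKM in dividing tissue, against 233 and 259 FPKM in non-dividing tissue, and TUB9 is the gene whose non-dividing libraries lie higher.

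Of the 9 members, 7 were therefore higher and 1 was lower in dividing tissue at a limma adjusted p under 0.05. Over all 17967 annotations tested, 51.7% were higher and 18.2% lower, so that a call alone sets a member little apart from other genes. The members' median log2FC was 0.92, against 0.38 over all tested annotations. Because most annotations had higher FPKM in dividing tissue, FPKM were also rescaled by a median-ratio factor per library, at 1.13 and 1.15 for the dividing libraries, against 0.844 and 0.856 for the non-dividing ones. This moved the median of all tested annotations to 0.01, with 30.4% of annotations higher and 31.3% lower, and values called rescaled are relative to that shift. The share of calls towards dividing tissue was 73.9% as deposited, 49.3% after rescaling and 52.8% after quantile normalization.

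After this rescaling, the same 7 members were higher in dividing tissue and both TUB4 and TUB9 were lower. The rescaled log2FC was 1.91 for TUB3, 1.79 for TUB1, 1.63 for TUB2 and 1.33 for TUB7, with limma adjusted p between 3.55e-04 and 0.00121. It was 0.50 for TUB5, 0.45 for TUB6 and 0.38 for TUB8, with limma adjusted p between 0.00980 and 0.0242. TUB4 had a rescaled log2FC of -0.49 (limma adjusted p = 0.0264), past the threshold, and TUB9 of -0.72 (limma adjusted p = 0.00389). With quantile normalization, under which 32.3% of annotations were higher and 28.9% lower, TUB4 again did not pass the threshold (-0.31, limma adjusted p = 0.0703), whereas TUB9 did (-0.44, limma adjusted p = 0.0196). The call for TUB4 thus depends on the scaling between libraries, and its FPKM as deposited was close to equal in both tissues. With the replicate number as a block, 7 members were again higher and TUB9 lower (limma adjusted p = 0.0354), where 54.1% of all annotations were higher and 20.2% lower. With rescaling and the block together, 7 members were higher and 2 lower, where the shares of all annotations were 32.8% and 33.7%.

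**Figure D2:**
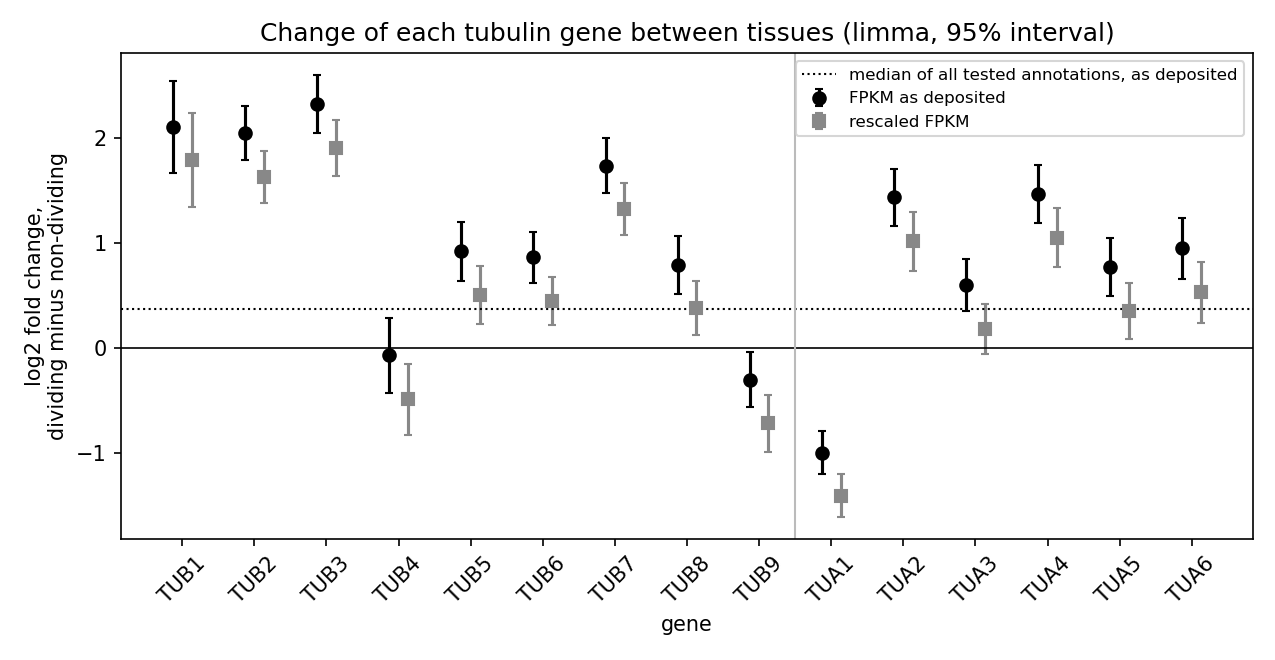
Log2FC (dividing minus non-dividing) for TUB1 to TUB9 and the alpha-tubulin genes TUA1 to TUA6, from FPKM as deposited (black circles) and rescaled FPKM (grey squares), with 95% intervals from limma and 2 libraries per tissue. TUB3 lies highest at 2.33, TUB4 at -0.07 and TUB9 at -0.30 lie lowest among the beta-tubulin genes, and the dotted line marks the median of all tested annotations at 0.38.

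The order of levels within each tissue differed. In dividing tissue the mean FPKM fell in the order TUB2, TUB3, TUB4, TUB5, TUB6, TUB7, TUB9, TUB8 and TUB1, and the libraries of TUB2 and TUB3 overlapped, as did those of TUB9 and TUB8. The highest mean was 34.9 times the lowest. In non-dividing tissue the order was TUB4, TUB2, TUB5, TUB6, TUB3, TUB9, TUB8, TUB7 and TUB1, and the libraries of TUB5 and TUB6 overlapped, as did those of TUB8 and TUB7. The range from TUB4 to TUB1 was 153-fold. The ranges of all other neighbours were apart. Compared within a library, TUB2 was above TUB3 in both dividing libraries, and TUB5 above TUB6 in both non-dividing libraries. The order of TUB9 and TUB8 changed between the dividing libraries, and that of TUB8 and TUB7 between the non-dividing libraries.

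Summed over the 9 members, beta-tubulin had 1306 and 1462 FPKM in dividing tissue, against 633 and 669 FPKM in non-dividing tissue. The mean was 1384 ± 111 FPKM in dividing and 651 ± 26.0 FPKM in non-dividing tissue (SD, n = 2), with 2.13 as the ratio of means (2.06 for HTR5-GFP libraries, 2.19 for HTR13-GFP libraries) and 1.59 after rescaling. The exact two-sided permutation p was 0.33, the smallest that 2 libraries against 2 can give. TUB2 and TUB3 carried most of the difference: without them the sum was 661 and 731 FPKM in dividing tissue, against 480 and 521 FPKM in non-dividing tissue, a ratio of 1.39.

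The make-up of the beta-tubulin transcript pool changed with tissue. Of the summed FPKM, TUB2 and TUB3 together held 49.3 and 50.01% in dividing tissue, against 24.0 and 22.2% in non-dividing tissue. TUB4 held 16.2 and 17.7% in dividing tissue, against 36.8 and 38.7% in non-dividing tissue, where it was the most abundant member. TUB9 held 3.29 and 2.96% in dividing tissue, against 9.06 and 7.44% in non-dividing tissue. TUB7 had a share of 5.81 and 5.92% in dividing tissue, against 3.81 and 3.45% in non-dividing tissue. The shares of TUB5 and TUB6 lay between 9.54 and 12.6% in all 4 libraries, TUB8 between 3.01 and 3.73%, and TUB1 stayed under 1%, at 0.719 and 0.750% in dividing tissue, against 0.198 and 0.294% in non-dividing tissue. These shares do not change when a library is divided by a single factor, and they are relative: the share of TUB4 differed by -20.8 percentage points (dividing minus non-dividing) while its FPKM was close to equal.

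**Figure D3:**
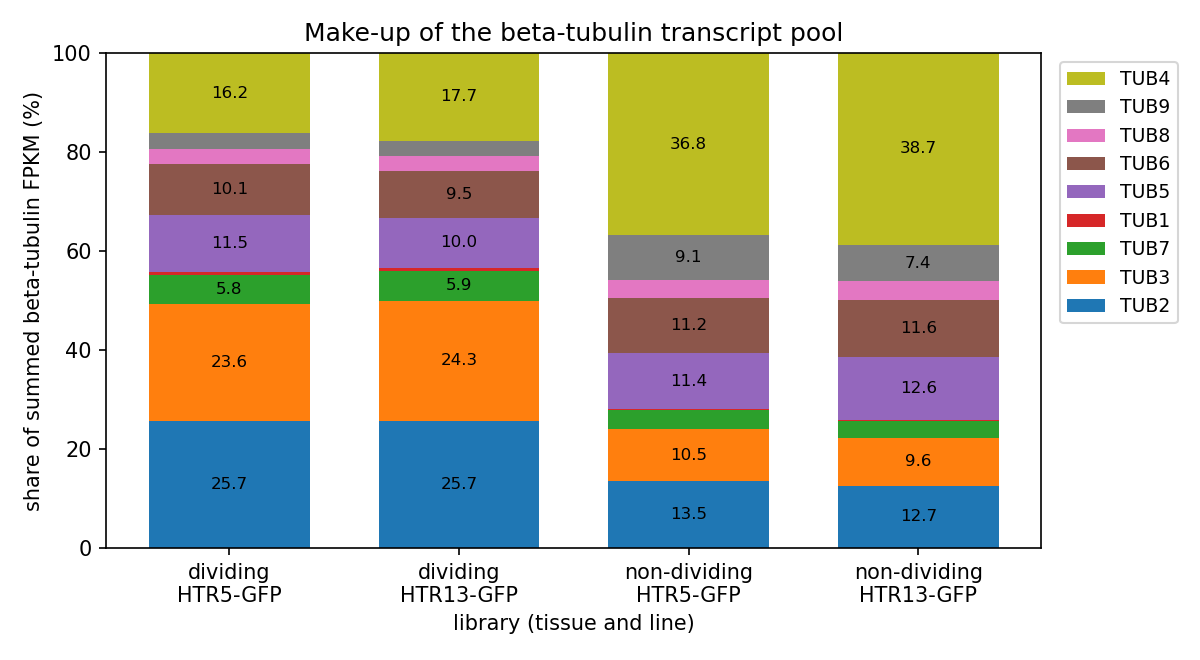
Share of each member in the summed beta-tubulin FPKM (%, stacked to 100) in each of the 4 libraries, named by tissue and line. TUB2 and TUB3 at the bottom make up 49.3 and 50.01% in dividing tissue, against 24.0 and 22.2% in non-dividing tissue, and TUB4 at the top 16.2 and 17.7% in dividing tissue, against 36.8 and 38.7% in non-dividing tissue.

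Alpha-tubulin, the partner in the heterodimer, is encoded by 6 genes. Of these, TUA2, TUA3, TUA4, TUA5 and TUA6 were higher in dividing tissue and TUA1 was lower, beside 51.7% of all annotations higher and 18.2% lower. TUA4 (log2FC 1.47) and TUA2 (1.44) had the largest change, followed by TUA6 (0.95), TUA5 (0.77) and TUA3 (0.60), with limma adjusted p between 5.03e-04 and 0.00415. TUA3 did not pass the threshold after rescaling (0.18, limma adjusted p = 0.141). TUA1, best known as a gene of pollen, had 24.0 and 23.5 FPKM in dividing tissue, against 48.5 and 48.1 FPKM in non-dividing tissue (log2FC -0.996, limma adjusted p = 5.94e-04). Several alpha-tubulin genes are close copies, and the share of 36-base exon stretches found at a single place was between 57.7 and 81.8% for all alpha-tubulin genes except TUA1, so how shared reads were divided among them is likewise uncertain. TUA2 and TUA5 also overlap another annotation.

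The sums of the alpha- and beta-tubulin genes were set side by side. Alpha-tubulin had 886 and 965 FPKM in dividing tissue, against 490.0 and 448 FPKM in non-dividing tissue, a ratio of 1.97, compared with 2.13 for beta-tubulin. Summed beta-tubulin was 1.47 and 1.52 times summed alpha-tubulin in dividing tissue, against 1.29 and 1.49 times in non-dividing tissue. The difference was smaller than the spread between the non-dividing libraries (exact two-sided permutation p = 0.67), and with 2 libraries each an equal balance of the families is not shown.

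Genes that nucleate microtubules, fold tubulin or bind the polymer were taken as further lists. Gamma-tubulin and its complex start new microtubules, and all 5 genes of that list were higher in dividing tissue, where 51.7% of all annotations were, from GCP3 (log2FC 0.29, limma adjusted p = 0.0436) to GCP4 (2.07, limma adjusted p = 7.44e-04). GCP4 had 5.62 and 6.47 FPKM in dividing tissue, against 0.447 and 0.947 FPKM in non-dividing tissue. It therefore passed the filter on low values only through dividing tissue. GCP3 did not pass the threshold after rescaling (-0.05, limma adjusted p = 0.685). The prefoldin subunits and the tubulin cofactors bring newly made tubulin chains to the assembled dimer. With ARL2 (HAL) they made a list of 12 genes, of which 11 were higher, beside the same 51.7% of all annotations. The largest change of that list was that of the prefoldin gene PFD1 (1.30, limma adjusted p = 0.00282), and TFCC (POR) at 0.35 was not past the threshold (limma adjusted p = 0.0840, with the replicate block 0.0447).

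Of 8 genes for microtubule-associated proteins, all were higher in dividing tissue, against 51.7% of all annotations. Of these, EB1A (0.315 and 0.520 FPKM), EB1B (0.646 and 0.559 FPKM) and EB1C were under 1 FPKM in both non-dividing libraries. They passed the filter on low values only through dividing tissue, and the list count and median include them. EB1C, an end-binding protein of the spindle, changed most, with 8.503 and 9.10 FPKM in dividing tissue, against 0.994 and 0.579 FPKM in non-dividing tissue (log2FC 2.47, limma adjusted p = 3.52e-04). SPR1, a protein of cortical arrays that keeps cell growth straight and whose gene overlaps another annotation, changed least (0.44, limma adjusted p = 0.0104), and after rescaling its log2FC was 0.03 (limma adjusted p = 0.818). The list medians were 1.27 for gamma-tubulin and its complex, 0.87 for tubulin folding, 1.31 for microtubule-associated proteins and 0.86 for alpha-tubulin, beside 0.92 for beta-tubulin and 0.38 for all tested annotations. After rescaling 4 of 5, 9 of 12, 6 of 8 and 4 of 6 genes of these lists were higher, beside 7 of the 9 beta-tubulin genes and 30.4% of all annotations. Among these lists a called lower value was seen for TUA1 alone, so that TUB9 and TUA1 were the called lower genes of the 5 lists as deposited.

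**Figure D4:**
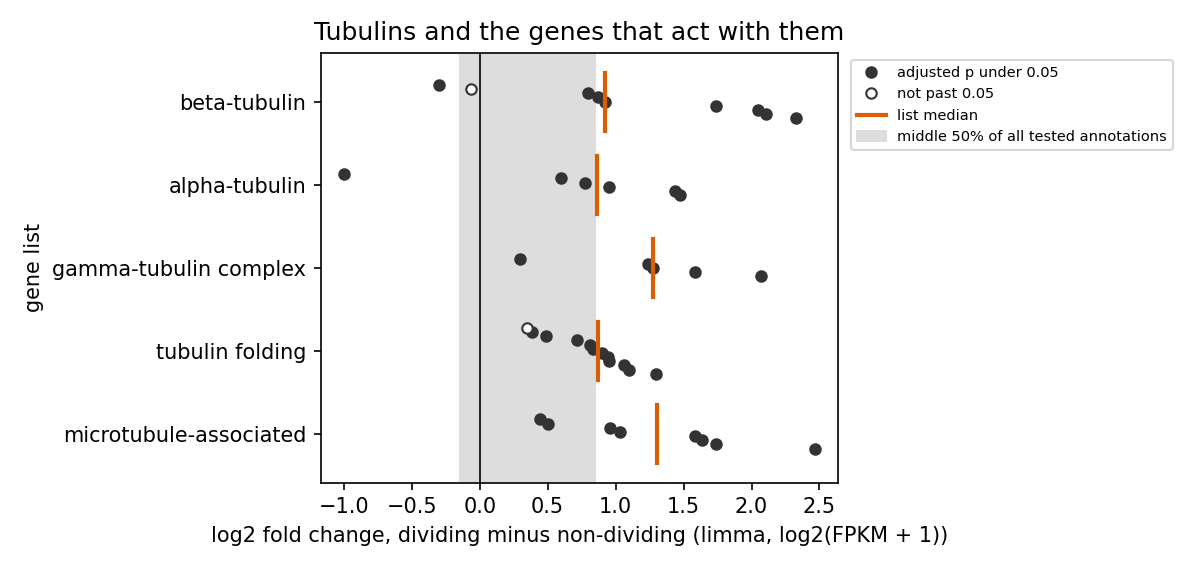
Log2FC (dividing minus non-dividing, limma, log2(FPKM + 1), FPKM as deposited) for each gene of 5 lists, with filled points past an adjusted p of 0.05, open points not past it, an orange bar at each list median and a grey band for the middle 50% of all tested annotations. The list medians lie between 0.86 and 1.31, and TUB9 and TUA1 are the filled points left of 0.

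Sequence upstream of the transcripts was searched for motifs of cell cycle and growth genes, in the 250 bases before each RefSeq start in TAIR10.1 and on both strands. AACGG, the core of the element bound by MYB factors in genes of mitosis, occurred upstream of TUB7 and TUB8, 2 of 9 members, and in 20.6% of 27443 protein-coding genes. TGGGCC, the site II element of many growth genes, occurred upstream of TUB2, TUB3 and TUB5, 3 of 9 members, and in 13.7% of all genes. TATAAA occurred upstream of 4 members and in 47.3% of all genes, and AAACCCTA (telo box) of no member and in 4.49% of all genes. None of these motifs occurred upstream of TUB1, TUB4 or TUB6, whose ratios of tissue means were 6.32, 0.958 and 1.83. TUB5, which held TGGGCC, had a ratio of 1.90. The windows of TUB2 (chr5:25181046-25181295, plus strand) and TUB3 (chr5:25184008-25184257, plus strand), the pair with the highest FPKM in dividing tissue, are shown with that of TUB4 (chr5:17861151-17861400, minus strand), which leads in non-dividing tissue, and capitals mark the motifs searched, of which TUB4 held none.
TUB2: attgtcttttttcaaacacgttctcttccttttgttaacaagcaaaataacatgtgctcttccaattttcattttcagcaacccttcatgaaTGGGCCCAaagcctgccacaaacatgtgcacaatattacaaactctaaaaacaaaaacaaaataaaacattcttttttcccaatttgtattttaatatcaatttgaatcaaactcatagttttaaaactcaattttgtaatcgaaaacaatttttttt
TUB3: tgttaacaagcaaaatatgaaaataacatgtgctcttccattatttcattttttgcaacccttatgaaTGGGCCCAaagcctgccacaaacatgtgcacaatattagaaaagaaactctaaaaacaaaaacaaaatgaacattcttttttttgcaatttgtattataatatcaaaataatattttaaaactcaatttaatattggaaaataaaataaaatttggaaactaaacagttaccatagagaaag
TUB4: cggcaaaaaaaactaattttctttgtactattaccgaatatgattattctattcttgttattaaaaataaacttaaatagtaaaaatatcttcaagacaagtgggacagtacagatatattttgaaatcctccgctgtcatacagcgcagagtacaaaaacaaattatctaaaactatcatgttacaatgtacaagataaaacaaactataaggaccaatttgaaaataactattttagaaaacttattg
In TUB2 and TUB3 the motif occurred on both strands with an overlap of 4 bases, as TGGGCCCA. It lay in a run of 43 bases that both windows share, starting 163 bases before the start of TUB2 and 187 bases before that of TUB3, whereas no other pair of members shared a run above 11 bases. A match describes the letters of the window and is no evidence of a bound site.

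The summed beta-tubulin FPKM was also set against the pattern of single genes. Over the 4 libraries, by the root mean square difference of centred log2(FPKM + 1), the 5 most alike of 17484 protein-coding genes were AT3G58940, LSM6B, TAFII21, AT3G54270 and AT2G41950, with differences between 0.008 and 0.014. With 4 libraries in 2 tissues such likeness is common, and 923 genes lay within 0.1. AT3G58940 had 2.53 and 2.96 FPKM in dividing tissue, against 0.696 and 0.790 FPKM in non-dividing tissue. AT3G54270 had 1.77 and 2.08 FPKM in dividing tissue, against 0.358 and 0.434 FPKM in non-dividing tissue. At such low FPKM the added 1 weighs more, so both match on this scale although their FPKM changed by a larger factor than the sum.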

How the data were processed

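Poly-A RNA of 4 libraries was sequenced on an Illumina Genome Analyser. The authors mapped reads onto TAIR9 with TopHat 1.2.0, Bowtie 0.12.7 and SAMtools 0.1.13, and deposited the FPKM that Cufflinks 0.9.3 gave for each annotation in each library (versions also in the submitters' processing notes). FPKM summed to between 700884 and 715002 per library, and 13084 to 14269 annotations were listed at 0. Whole reads could not be recovered: among 3136 annotations of low FPKM the most frequent ratio of the dividing libraries was shared by 9. Exact read counts behind single values are therefore unknown. The paper gives the mapped reads of each library, but approximate counts were not derived from them, and no counting intervals are given.

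Tissues were compared by linear models in limma 3.58.1 under R 4.3.3 (moderated variances with a mean trend), fitted to log2-transformed FPKM after adding 1. The fit held the 17967 annotations whose mean FPKM reached 1, tests were two-sided, and Benjamini-Hochberg adjusted p-values over the whole fit were called under 0.05. A fold change on this scale understates changes at low FPKM. Replicate numbers pair the libraries, since same-numbered libraries come from the same transgenic line; deviations from tissue means had a Pearson correlation of 0.257 across annotations. Alternatives were the scaling between libraries, pseudocount, filter, replicate block, variance trend, summing TUB2 and TUB3, and leaving out each library. Simulated FPKM with known changes were also run through the fit. The outcome is not reported here and is not used as a check of the scaling between libraries. Rescaled FPKM are those divided by the median ratio of the library to the mean library.

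Sequences were read from RefSeq TAIR10.1 by its own annotation; coordinates of the table are those of TAIR9, counted from 1. Coding sequences were aligned globally with Biopython 1.88. Named are all members, all alpha-tubulin genes, the genes of largest and smallest change of each further list, and the 5 genes nearest in pattern. Members and lists were chosen with earlier results of these data known. The ChIP-Seq part of the study was not analysed here.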

Additional observations from a re-analysis of the deposited data

Results flagged for a closer look

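TUB4 was singled out because the ratios of its 2 lines lie on opposite sides of 1, although that of the HTR13-GFP line is close to 1: the ratio of dividing to non-dividing FPKM was 0.908 for the HTR5-GFP libraries and 1.002 for the HTR13-GFP libraries. Each line has 1 library per tissue, and the difference between the lines was not tested.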

How the results depend on the processing

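Of 119 values listed for members under alternatives, 111 kept their direction and their side of the threshold. Both numbers count the fit of TUB2 and TUB3 summed (2.18) once for each gene, although it describes neither alone. TUB1, TUB2, TUB3, TUB5, TUB6, TUB7 and TUB8 kept direction and side of the threshold under every alternative run. The exceptions were TUB4 and TUB9. TUB4 ranged from -0.22 to 0.080 when a library was left out: it changed sign to 0.080 without replicate 1 of dividing tissue and to 0.0091 without replicate 2 of non-dividing tissue, past the threshold in neither (limma adjusted p = 0.615 and 0.965), and was lower at -0.49 with rescaling, alone or with the replicate block (limma adjusted p = 0.0264 and 0.00712). The limma adjusted p of TUB9 was 0.0564 without the variance trend and ranged from 0.00111 to 0.180 over all alternatives. Members called lower were 2 with rescaling, alone or with the replicate block, 0 without the variance trend and 0 to 1 when a library was left out. The replicate block (pairing by line) left 7 members higher and 1 lower; it changed the call of TFCC alone among the genes of the alpha-tubulin, gamma-tubulin, folding and microtubule-associated lists, so that 12 genes of tubulin folding were higher. With a minimum mean FPKM of 5, which tests fewer genes, all 3 genes of the gamma-tubulin complex and all 5 microtubule-associated genes still tested were higher, where 6871 of 13280 annotations were higher and 2619 lower. That filter removed GCP3, GCP4, EB1A, EB1B and EB1C. With quantile normalization 4 of 5 gamma-tubulin, 10 of 12 folding and 7 of 8 microtubule-associated genes were higher, beside 32.3% of all annotations. With a pseudocount of 0.01, 4 of 5 gamma-tubulin genes were higher, where 9070 of 17967 annotations were.

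Over all annotations, 9282 were higher and 3271 lower as deposited, 5470 and 5622 with rescaling, 5804 and 5184 with quantile normalization, and 5898 and 6063 with rescaling and the replicate block. Leaving out a library gave 5661 to 8624 higher and 1868 to 2999 lower annotations; the lone library of a tissue is then assumed to vary like the others. The ratio of summed beta-tubulin FPKM, 2.13 as deposited, was 1.59 with rescaling, 1.39 without TUB2 and TUB3, 2.84 without TUB4 and 2.01 to 2.25 when a library was left out. With 2 libraries per tissue, small changes such as that of TUB9 are at the limit of what could be called.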
